A study of Mus musculus with 12 samples.

Results

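BC018473 is a gene of mouse chromosome 11 that is annotated as an antisense transcript. It was described here together with 8 neighbouring genes, St6galnac2, St6galnac1, Mxra7, Jmjd6, Mettl23, Srsf2, Mfsd11 and Mgat5b. BC018473 was chosen by its counts in hematopoietic stem cells (HSCs), none in WT and at least 6604 in each Pon2-/- sample, so its own difference between genotypes is a description and was not tested. The neighbours were listed for lying near it, on both sides, but not every gene there was listed. Closer genes such as the pseudogene Gm11735 were left out, and earlier results of these data were known when the list was made. The 9 symbols stand for 10 Ensembl IDs, because St6galnac2 has a second ID, out of 49585 IDs in the count tables. The question was whether the presence of BC018473 RNA in one genotype and not in the other was confined to this gene or extended to the genes beside it.

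HSCs were sorted as Lin-, Sca1+, ckit+, CD135- and CD150+ bone marrow cells, a gate that holds LT-HSCs and MPP2 cells. They came from 6 WT and 6 Pon2-/- mice, labelled C57BL/6J and 10 to 14 weeks old, with 10 cells in each of 8 wells per mouse for Smart-seq2 libraries. Pon2-/- mice carry a gene trap with β-geo, flanked by loxP sites, in intron 2 of Pon2, which lies on chromosome 6 and not on chromosome 11. A gene trap interrupts a transcript without deleting the gene. The WT mice were bought from Charles River, so the loss of Pon2 and any other difference between both sources of mice cannot be told apart. There is 1 sample per mouse, and in such bulk samples fewer cells that use a gene and less RNA per cell cannot be told apart.

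Sialyltransferases such as ST6GALNAC1 and ST6GALNAC2 attach sialic acid to sugar chains in the Golgi, here to the N-acetylgalactosamine that begins O-linked chains, which shortens or caps them. MGAT5B adds branches to sugar chains and is best known from brain. SRSF2 is a splicing factor of the SR family that is recurrently mutated in human myeloid disease, JMJD6 and METTL23 modify proteins, and BC018473 is annotated as noncoding.

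Counts are per gene, so which exons or transcripts of BC018473 the reads came from was not examined. A stretch of BC018473 is shown as annotated. It joins exons 2 and 3 of BC018473-204 (plus strand, GRCm38, exon 2 at chr11:116753570-116753665 and exon 3 at chr11:116754334-116754489) and is present in all 4 annotated transcripts. Exon 2 is in lower case and exon 3 in capitals.
BC018473: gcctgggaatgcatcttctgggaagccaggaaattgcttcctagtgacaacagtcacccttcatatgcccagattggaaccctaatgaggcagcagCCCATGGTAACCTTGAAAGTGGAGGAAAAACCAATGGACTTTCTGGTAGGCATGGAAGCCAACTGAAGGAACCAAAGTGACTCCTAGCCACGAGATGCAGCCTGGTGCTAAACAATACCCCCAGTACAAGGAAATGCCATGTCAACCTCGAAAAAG
Against all annotated transcripts, the hits of other genes that reached 90% identity to BC018473 were at most 90 bases long. St6galnac1 has a close copy instead, the pseudogene Gm11735, which lies between St6galnac2 and BC018473. Both are 98% identical over 1581 bases with 32 differing bases and share a longest identical run of 402 bases. The 90 coding bases of St6galnac1 shown here (minus strand, chr11:116769280-116769369) were chosen for holding the most differences, so the remaining sequence is more alike. They are set beside the matching stretch of Gm11735 (minus strand, chr11:116742611-116742700), with the 10 differing bases in capitals.
St6galnac1: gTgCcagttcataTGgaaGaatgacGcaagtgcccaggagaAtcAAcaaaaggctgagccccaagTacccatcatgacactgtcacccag
Gm11735: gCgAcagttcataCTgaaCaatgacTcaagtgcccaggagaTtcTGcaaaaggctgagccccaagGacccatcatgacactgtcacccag

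The libraries held 12967791 to 24228280 counts in WT and 14671353 to 23122382 in Pon2-/- HSCs, and 3 counts, the limit below which a gene is taken as not detectable, correspond to 0.121 to 0.235 CPM (counts per 1000000, scaled by TMM). Pon2 ranged from 56.4 to 202 CPM in WT and from 1.16 to 33.1 CPM in Pon2-/- HSCs, with no overlap (exact two-sided permutation p = 0.00216, the smallest that 6 against 6 samples allow). Its log2 fold change was -2.13 ± 0.57 (SE) with an adjusted p of 0.586 in edgeR's quasi-likelihood test. All 12 listed HSC markers had counts in all 12 samples, with sums of 2665 to 3263 CPM in WT and 2725 to 3190 CPM in Pon2-/- HSCs. Summed myeloid markers varied from 565 to 9436 CPM in WT and from 597 to 14500 CPM in Pon2-/- HSCs. The 6 B lineage markers summed to 25.5 to 319 CPM in WT and 58.8 to 478 CPM in Pon2-/- HSCs, with none of them at 0 throughout. The 6 T lineage markers summed to 0.0424 to 39.7 and 18.8 to 57.7 CPM, with Cd3e and Cd8a at 0 in all samples, and the 4 stromal markers to 23.4 to 84.2 and 23.9 to 102 CPM, with Cdh5 at 0. Erythroid sums were 19.9 to 44.6 and 22.3 to 69.7 CPM, and megakaryocyte sums 162 to 238 and 107 to 266 CPM. Flt3, which encodes the CD135 that the gate excludes, had counts in all 12 samples. It ranged from 4.59 to 49.3 CPM in WT and from 26.7 to 65.0 CPM in Pon2-/- HSCs. Flt3 and the sums of all these lists overlapped between genotypes, and the part of other cell types in the results was not tested.

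BC018473 (ENSMUSG00000056032.12, chromosome 11 from 116752167 to 116759373, plus strand) had 0 counts in each of the 6 WT samples. In the 6 Pon2-/- samples it had 17938, 21264, 18307, 14455, 16340 and 6604 counts. All Pon2-/- samples were therefore far above all WT samples, and replicate 6 was the lowest of them. The level in Pon2-/- HSCs was 864 ± 256 CPM (SD, n = 6) with a median of 960 CPM and a coefficient of variation of 29.6%. If 3 counts in all WT samples together are taken as the limit of detection, the pooled Pon2-/- level was at least 31626-fold above it. This pooled level is the summed counts over the summed scaled library sizes. BC018473 took 0.0847% of all counts of the Pon2-/- samples, from 0.0392% in replicate 6 to 0.102%. By mean CPM it was number 80 among the genes of Pon2-/- HSCs. Per kilobase of exon, it was number 367 of 21825 genes, at 158 ± 46.7 CPM per kb.

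**Figure D1:**
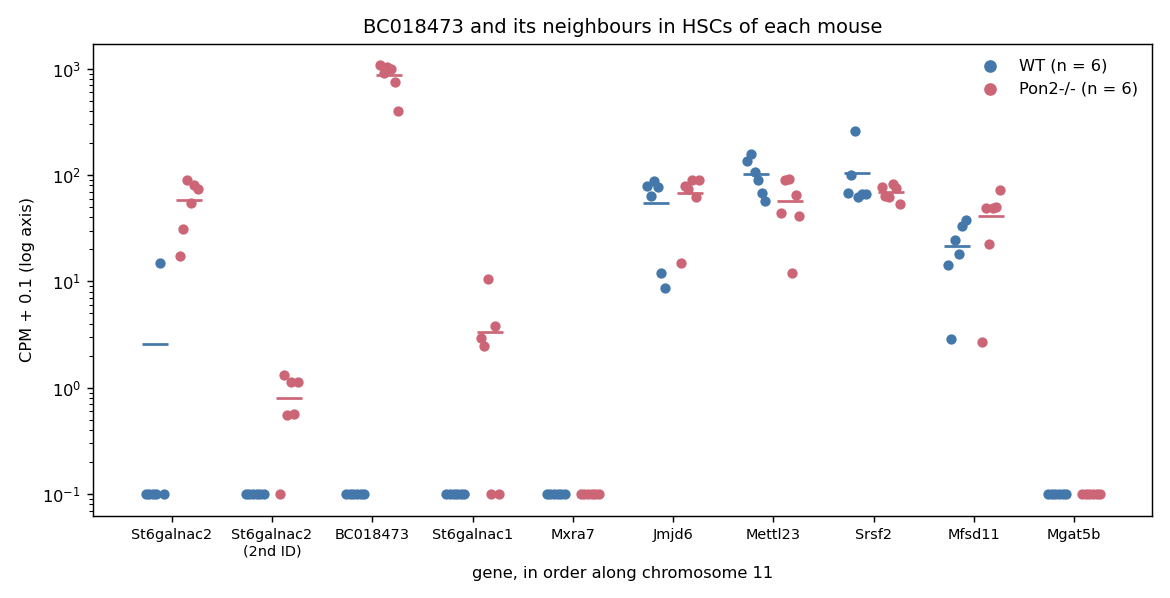
CPM + 0.1 on a log axis for each of the 10 Ensembl IDs in order along chromosome 11, with 1 point per mouse and a line at the mean of each genotype (WT and Pon2-/-, n = 6 each). Points at the bottom are samples with 0 counts, and all 6 WT samples lie there for BC018473 while the Pon2-/- samples lie between 397 and 1072 CPM.

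The sialyltransferase genes flank BC018473 on both sides and both had more counts in Pon2-/- HSCs. St6galnac2 (ENSMUSG00000057286.6, chromosome 11 from 116675303 to 116694868, minus strand), which starts 57298 bases before BC018473, had 0 counts in 5 of 6 WT samples and 205 counts in WT replicate 5. In Pon2-/- HSCs it had 290, 721, 1586, 784, 1732 and 1224 counts. Each Pon2-/- sample was above each WT sample, although the lowest, at 17.3 CPM, was only 1.16 times the 14.9 CPM of WT replicate 5. WT HSCs averaged 2.48 ± 6.07 CPM and Pon2-/- HSCs 57.8 ± 28.8 CPM (SD, n = 6), a ratio of 23.3. In the fit across all genes the log2 fold change was 4.55 ± 1.79 (SE, 95% interval 0.70 to 8.39), with an unadjusted p of 0.0237 and an adjusted p of 1.0 (edgeR, Benjamini-Hochberg). An exact permutation test on St6galnac2 gave p = 0.00216, unadjusted, as 1 of 7 such tests on the neighbouring IDs with counts. St6galnac2 entered the fit through its counts in Pon2-/- HSCs. Without WT replicate 5 the adjusted p was 0.00225 in edgeR's test, so this 1 sample decided the call. The log2 fold change itself depended on the fit, at 9.30 in limma voom with sample weights (adjusted p = 0.0535), 10.73 with the replicate number as a block (adjusted p = 0.368, edgeR) and 13.08 without WT replicate 5, where the fitted value is no bound because all remaining WT samples were at 0. Without it the pooled level in Pon2-/- HSCs was at least 1848-fold above the limit of 3 counts over the other WT samples.

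The second St6galnac2 ID (ENSMUSG00000110170.1, 116677483 to 116681290) had 0 counts in all WT samples and 0, 28, 8, 15, 10 and 17 counts in the Pon2-/- samples. It shares 383 exon bases with the first ID, so reads there could not be assigned to one of them. The groups overlapped only at 0, in Pon2-/- replicate 1 (exact permutation p = 0.0152, unadjusted). It did not pass the filter on low counts and had no edgeR value. St6galnac2 also shares 497 exon bases with 1810032O08Rik on the opposite strand, and Smart-seq2 libraries do not mark strand. 1810032O08Rik itself ranged from 8.19 to 64.7 CPM in WT and from 4.78 to 59.3 CPM in Pon2-/- HSCs, with a log2 fold change of 0.45 (unadjusted p = 0.485, edgeR).

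St6galnac1 (ENSMUSG00000009588.9, 116765025 to 116775507, minus strand) lies 5651 bases beyond BC018473. It had 0 counts in all WT samples and 47, 55, 183, 0, 80 and 0 counts in the Pon2-/- samples. Counts were thus present in 4 Pon2-/- samples, while replicates 4 and 6 were at 0 like the WT samples. Pon2-/- HSCs averaged 3.21 ± 3.83 CPM (SD, n = 6). Pooled as for BC018473, the Pon2-/- level was at least 122-fold above the WT limit. The exact permutation test gave p = 0.0606, also when any 1 of 10 other samples was left out. It gave 0.0152 only without Pon2-/- replicate 4 or without replicate 6, the Pon2-/- samples at 0. St6galnac1 did not pass edgeR's filter, whereas DESeq2, which kept it, gave an adjusted p of 0.034. It entered DESeq2 through its counts in Pon2-/- HSCs alone, since all WT samples were at 0. When edgeR was run without the filter, St6galnac1 and both St6galnac2 IDs had unadjusted p-values of 0.00536, 0.0195 and 0.00241 and an adjusted p of 0.281 each. Its copy Gm11735 had 48 counts in Pon2-/- replicate 5 and 0 in the other 11 samples, so the reads of both in that sample are uncertain. Reads that match both copies equally could be lost or misplaced in any sample, also in those at 0, which was not tested.

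Scaled for length, levels can be set side by side. In Pon2-/- HSCs, BC018473 stood at 158 ± 46.7, St6galnac2 at 9.98 ± 4.98 and St6galnac1 at 1.34 ± 1.60 CPM per kb of exon (SD, n = 6). Each sample of BC018473 (at least 72.5 CPM per kb) was above each of St6galnac2 (2.99 to 15.6), whereas St6galnac2 overlapped with St6galnac1 (0 to 4.35). The mean per kb of BC018473 was 15.8 times that of St6galnac2 and 118 times that of St6galnac1. The latter ratio may be too high if St6galnac1 reads were lost to its copy Gm11735, which was not tested. In the same samples, Srsf2 stood at 23.3 ± 3.71, Mettl23 at 21.1 ± 11.4, Jmjd6 at 14.5 ± 6.04 and Mfsd11 at 5.76 ± 3.44 CPM per kb. The samples of Srsf2, Mettl23 and Jmjd6 overlapped in this measure, and those of Mfsd11 overlapped with the latter pair but not with Srsf2. Within single Pon2-/- samples, the CPM of BC018473 was 5.40 to 61.9 times that of St6galnac2, so the levels of these 2 genes did not keep 1 ratio. Replicate 6, with the lowest BC018473, had 73.5 CPM of St6galnac2, above the median of 63.9 CPM, and replicate 1, with the highest BC018473, had the lowest St6galnac2.

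Further from BC018473, on the side of St6galnac1, Mxra7, which encodes a membrane protein of uncertain role, had 0 counts in all 12 samples. Mgat5b, at the far end, was also at 0 in all 12. A count of 0 allows up to 3 counts per sample, that is 0.121 to 0.235 CPM. Between them lies a cluster of 4 genes that were detected in every sample of both genotypes.

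Jmjd6, encoding a hydroxylase and demethylase of proteins, ranged from 8.59 to 87.0 CPM in WT (median 70.4) and from 14.7 to 90.3 CPM in Pon2-/- HSCs (median 76.5). The low samples were WT replicates 5 and 6 and Pon2-/- replicate 1, and the groups overlapped almost fully (log2 fold change 0.32 ± 0.57 SE, 95% interval -0.91 to 1.56). Mettl23, an arginine methyltransferase gene that lies head to head with Jmjd6, ranged from 56.9 to 157 CPM in WT (median 97.9) and from 12 to 91.6 CPM in Pon2-/- HSCs (median 54.4). The groups overlapped, with Pon2-/- replicate 4 the lowest sample (log2 fold change -0.84 ± 0.42 SE, 95% interval -1.75 to 0.06, exact permutation p = 0.0519).

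Srsf2 ranged from 61.5 to 261 CPM in WT (median 67.1) and from 52.9 to 81.7 CPM in Pon2-/- HSCs (median 69.1). The high value was WT replicate 3 alone, and the medians were nearly equal (log2 fold change -0.59 ± 0.36 SE, and -0.07 without that replicate). Mfsd11, which encodes a transporter-like membrane protein, ranged from 2.74 to 37.7 CPM in WT (median 21.1) and from 2.57 to 71.5 CPM in Pon2-/- HSCs (median 49.2). Again 1 Pon2-/- sample, replicate 1, was as low as the lowest WT sample, and the groups overlapped (log2 fold change 0.92 ± 0.71 SE, 95% interval -0.61 to 2.44). All 4 had an adjusted p of 1.0 in edgeR's test. Their exons overlap, with 172 bases shared by Jmjd6 and Mettl23, 460 by Mettl23 and Srsf2, 288 by Srsf2 and Mfsd11 and 257 by Mettl23 and Mfsd11, so counts could be split or lost there. Mettl23 is also 98.2% identical to Gm14127 over 678 bases.

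Of the neighbours, 5 IDs were tested by edgeR and 0 were called (adjusted p under 0.05 and more than 2-fold), where 0.203% of the 11848 tested genes were called (0.127% higher and 0.076% lower in Pon2-/- HSCs) and 371 had an unadjusted p under 0.05. St6galnac2 was the 1 neighbour with an unadjusted p under 0.05 and also the 1 whose groups did not overlap, a pattern seen above WT in 0.388% and below WT in 0.245% of tested genes, and above WT in 0.228% of all genes with a count. DESeq2 called 1 neighbour, St6galnac1, against 1.79% of all genes it tested (0.806% higher in Pon2-/- HSCs). St6galnac1 had counts in Pon2-/- HSCs only and entered DESeq2 through them. With 5 IDs tested by edgeR, and few more by DESeq2, these numbers of calls are too small to be read as a share.

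The same was asked of each gene within 500 kb of BC018473, so that the list was set by position alone. Of the 39 other IDs in that window, 22 had no count in any sample and 17 had counts. The 12 of these that passed the filter had log2 fold changes from -1.69 to 0.65 with a median of -0.26, beside -0.01 over all tested genes. None was called by edgeR or DESeq2, none had an unadjusted p under 0.05 in edgeR, and the groups of all 12 overlapped. On the side away from St6galnac1, Prpsap1, a regulatory subunit of phosphoribosyl pyrophosphate synthesis, ranged from 92.9 to 279 CPM in WT and from 101 to 186 CPM in Pon2-/- HSCs. Srp68, of the signal recognition particle, ranged from 63.0 to 167 and from 33.3 to 137 CPM, and Exoc7, of the exocyst, from 41.1 to 115 and from 34.6 to 169 CPM. These 3 genes overlapped widely between genotypes. At most, Rnf157 had 25.2 CPM in a WT and 11.4 CPM in a Pon2-/- sample, Ube2o 20.0 and 16.1 CPM, and Rhbdf2 15.9 and 10.9 CPM, each with samples at or near 0 in both genotypes. Ubald2 stayed at 1.09 to 3.93 and 1.48 to 3.36 CPM.

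On the other side, the noncoding RNA Snhg20 ranged from 162 to 267 CPM in WT and from 192 to 263 CPM in Pon2-/- HSCs. Sept9, a septin gene, ranged from 26.6 to 87.5 and from 33.1 to 68.4 CPM, and Sec14l1 from 3.22 to 31.8 and from 0.0569 to 63.2 CPM. Again the genotypes overlapped. The remaining genes with counts did not pass edgeR's filter, so the main fit gave them no value. Galr2 was at 0 in WT and reached 7.31 CPM in Pon2-/- HSCs, Gm11739 reached 18.1 and 6.72 CPM, Cygb 0.686 and 18.9 CPM, and Gm16045 31.0 and 0.171 CPM. Each of these 4 had samples at 0 in both genotypes. DESeq2 called none of them, with an adjusted p of 0.0736 for Gm16045, 0.774 for Cygb and 0.999 for Gm11739, and none given for Galr2. Gm16045 was lower in Pon2-/- HSCs (log2 fold change -7.05 in DESeq2). Without the filter, edgeR gave unadjusted p-values of 0.0163 for Gm16045, 0.0268 for Galr2, 0.0758 for Cygb and 0.664 for Gm11739. The adjusted p was 0.281 for Gm16045 and Galr2 in that edgeR run. Summed over all genes of the window except BC018473, the level was 810 to 1193 CPM in WT and 677 to 1148 CPM in Pon2-/- HSCs, while BC018473 alone ranged from 397 to 1072 CPM in Pon2-/- HSCs. These sums are in reads and not per length.

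**Figure D2:**
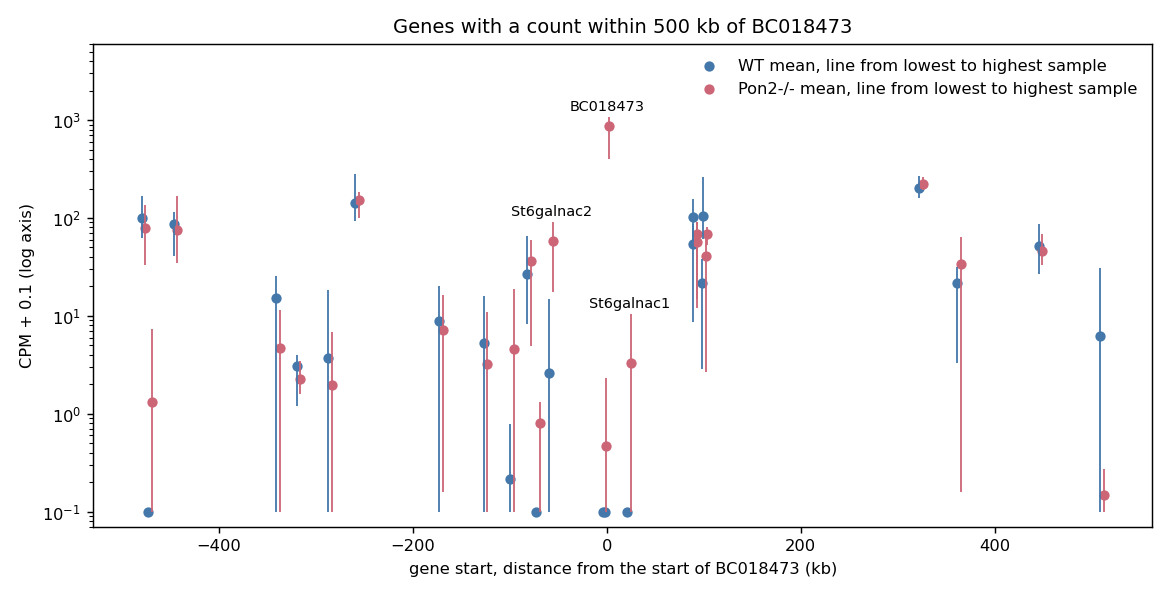
CPM + 0.1 on a log axis against the distance in kb of each gene's start from that of BC018473, for genes with a count within 500 kb, measured from gene edge to gene edge. Dots are means and lines run from the lowest to the highest sample (WT and Pon2-/-, n = 6 each). BC018473 and St6galnac2 have Pon2-/- samples wholly above the WT samples, and the ranges of the other genes overlap.

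**Figure D3:**
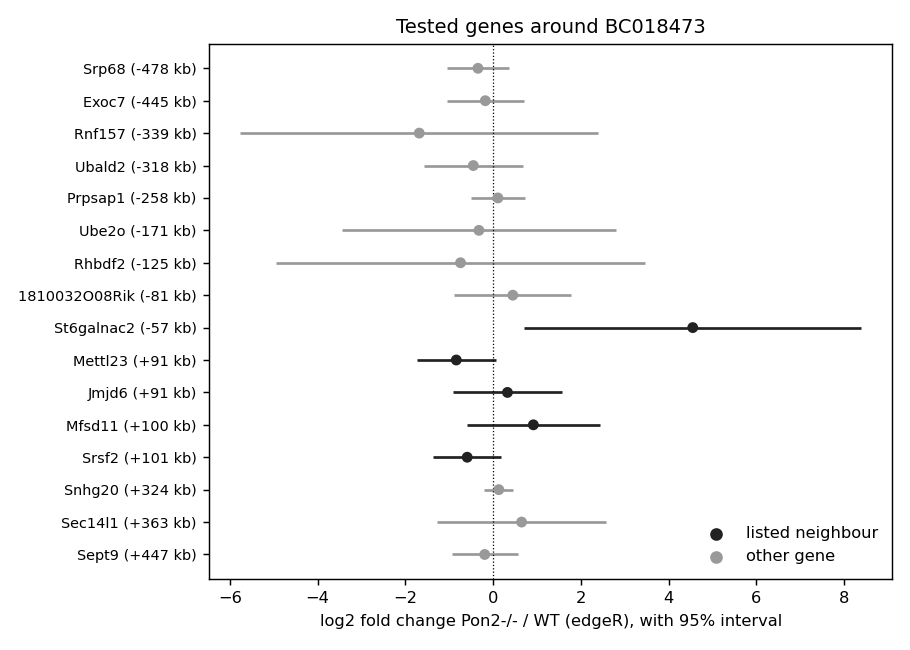
Log2 fold change of Pon2-/- over WT HSCs for 16 of the 17 tested window genes other than BC018473, ordered by the position of their start. The 95% intervals were derived from edgeR's test statistic. The interval of St6galnac2 (0.70 to 8.39) lies above 0 and those of the other 15 genes include 0.

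From St6galnac2 through Gm11735 and BC018473 to St6galnac1, the stretch from 116675303 to 116775507 held 5 IDs besides the overlapping end of 1810032O08Rik. They had 0 counts in WT HSCs except for the 205 of St6galnac2 in WT replicate 5. This stretch was outlined after the values were seen. Elsewhere in the window, counts lay mostly in Pon2-/- samples for Galr2, with 158 counts in Pon2-/- replicate 5 and 0 in the other 11 samples, and for Cygb, with 439 and 170 counts in Pon2-/- replicates 2 and 5 and 13 in WT replicate 2. Of the 25444 genes with a count in any sample, 66 (0.259%) had none in WT and counts in at least 4 Pon2-/- samples. Of these, 3 lay within 500 kb of BC018473, namely BC018473 itself, St6galnac1 and the second St6galnac2 ID. The reverse pattern, no count in Pon2-/- and counts in at least 4 WT samples, was met by 69 genes (0.271%), and 0 of them lay in the window. This cutoff of 4 samples was not planned, and BC018473 had been chosen for its pattern, so these numbers are a description. With counts required in every Pon2-/- sample, 1 gene lay in the window, BC018473 itself.

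The stricter pattern of BC018473, no count in any WT sample and a count in every Pon2-/- sample, was met by 11 genes (0.0432%) and its reverse by 9 (0.0354%). Of the 11, 3 had at least 10 counts in each Pon2-/- sample. Ranked by their lowest level in Pon2-/- HSCs, the next after BC018473 were Gm26862, Gm7478, Gm7639, Ugt1a8 and Gm43554. They were on other chromosomes and much lower. Gm26862 ranged from 1.02 to 5.62 CPM, Ugt1a8, a glucuronosyltransferase gene, from 0.361 to 1.43 CPM, and the pseudogenes Gm7478 and Gm7639 from 0.661 to 1.36 and from 0.541 to 1.34 CPM. Gm43554, another pseudogene, ranged from 0.227 to 1.02 CPM. Tmem17, the only other such gene on chromosome 11, was named after its values were seen, ranged from 0.139 to 58.2 CPM and began at 22512088, far from BC018473.

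The reverse pattern was led by Gnpda2, which encodes an enzyme of glucosamine metabolism and ranged from 24.6 to 97.1 CPM in WT HSCs, and by Htatip2, at 24.3 to 91.8 CPM. They had 0 counts in all Pon2-/- samples. The mitochondrial mt-Nd3, at 5.28 to 10.6 CPM, Gm26896, at 2.39 to 5.24 CPM, and Gvin1, at 0.861 to 6.60 CPM, followed. Genes detected in one genotype only were thus found in both directions, and BC018473 had the highest CPM among the 11 of its kind.

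St6galnac1 and St6galnac2 belong to a family of 20 sialyltransferase genes, which were all looked at. Of their 21 IDs, 2 had no count and 10 were tested by edgeR. None was called, 1 (St6galnac2) had an unadjusted p under 0.05, and the median log2 fold change was 0.04. DESeq2 called 1, St6galnac1, which had counts in Pon2-/- HSCs only. The highest 3 by mean CPM, not scaled for length, were St8sia4, which builds polysialic acid, at 72.8 ± 15.8 CPM (SD) in the 6 WT and 73.9 ± 51.0 CPM in the 6 Pon2-/- samples, St3gal1 at 67.8 ± 19.6 and 70.8 ± 45.1 CPM, and St3gal4 at 57.9 ± 30.8 and 51.6 ± 37.0 CPM. The genotypes overlapped for all 3. Of the other ST6GALNAC genes, St6galnac3 at 43.8 ± 28.4 and 54.5 ± 33.8 CPM and St6galnac4 at 57.1 ± 27.9 and 41.4 ± 19.7 CPM had log2 fold changes of 0.31 and -0.46. These were named after their values were seen.

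**Figure D4:**
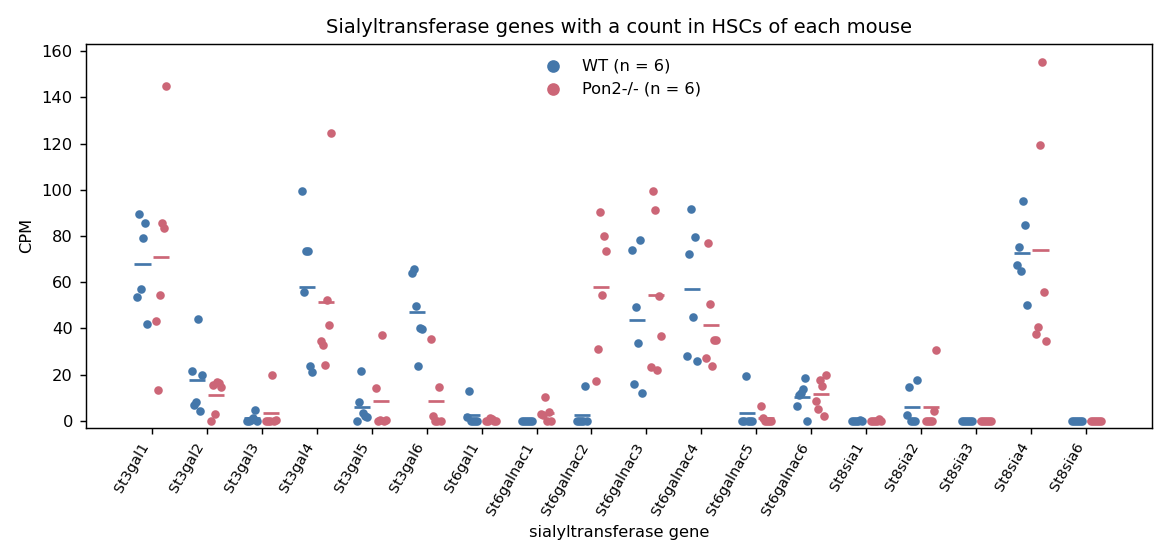
CPM of the sialyltransferase genes with a count, with 1 point per mouse and a line at the mean (WT and Pon2-/-, n = 6 each). St6galnac2 has its 6 Pon2-/- samples above all WT samples, whereas the points of the other genes overlap between genotypes.

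Among 9 N-glycan branching genes, the family of Mgat5b, 3 including Mgat5b had no count, 5 were tested and 0 were called by edgeR or by DESeq2, with 1 unadjusted p under 0.05. The highest by mean CPM were Mgat1 (85.6 ± 38.0 CPM in WT against 75.5 ± 35.6 CPM in Pon2-/- samples, SD, n = 6), Mgat2 (63.4 ± 33.4 and 73.0 ± 43.5 CPM) and Mgat5 (43.7 ± 21.2 and 52.8 ± 17.1 CPM). Among 11 SR protein genes, the family of Srsf2, 10 were tested and 0 were called by edgeR or by DESeq2, with 0 at an unadjusted p under 0.05. Srsf7 had the highest mean CPM, at 1199 ± 182 and 1271 ± 192 CPM, followed by Srsf6 at 416 ± 71.0 and 374 ± 102 CPM and Srsf11 at 395 ± 21.2 and 387 ± 66.0 CPM. The genotypes overlapped for all of these.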

How the data were processed

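Smart-seq2 libraries of HSCs from 6 WT and 6 Pon2-/- mice were analysed. The authors trimmed reads with Trimmomatic 0.36, mapped them with STAR 2.5.3a to GENCODE M12 (GRCm38.p5) and deposited raw counts of reads per gene, with a strand setting not given in the sources used here. Ensembl IDs were named by GENCODE M21 (49326 of 49585 IDs). Genes and exon overlaps came from the same annotation, and copies from blastn 2.17.0.

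Counts of all genes were fitted with edgeR 4.0.16 (TMM, filterByExpr, quasi-likelihood, genotype alone, Benjamini-Hochberg), and a gene was called at an adjusted p under 0.05 and more than 2-fold. CPM used TMM-scaled library sizes. Single genes had a two-sided exact permutation test over all 924 assignments on log2 CPM with a prior count of 2. A fold against a group at 0 set the pooled level of the other group against a limit of 3 counts over the group at 0. Intervals and limits cover counting error or the spread between these mice. DESeq2 1.42.0, limma 3.58.1 (voom with sample weights), other normalizations, no filter, a replicate block and leaving out samples were alternatives. The edgeR step was tested on simulated data. Some items are not reported here. The members and lists were chosen with earlier results of these data known. Named were all members, Pon2, window genes with at least 10 counts in a sample, the highest 3 of each family, and the 5 genes most like BC018473 in each direction.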

Additional observations from a re-analysis of the deposited data

Results flagged for a closer look

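In 13 groups of 6 samples among the members with counts, 6 samples stood apart from the rest of their group by Dixon's criterion. Normally distributed values meet it in about 1 in 20 groups, but CPM need not be so distributed. A group with a single sample above 0 always meets it, so the number flagged is not to be set against that rate. Members share exons and samples, so these are not independent. BC018473 was 397 CPM in Pon2-/- replicate 6, beside 756 to 1072 CPM in the other Pon2-/- samples. St6galnac2 was 14.9 CPM in WT replicate 5, beside 0 in the other WT samples, and its second ID was 0 in Pon2-/- replicate 1, beside 0.455 to 1.21 CPM. In the same Pon2-/- replicate 1, Jmjd6 was 14.7 CPM beside 61.8 to 90.3 CPM, and Mfsd11 was 2.57 CPM beside 22.2 to 71.5 CPM. Srsf2 was 261 CPM in WT replicate 3, beside 61.5 to 99.5 CPM in the other WT samples.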

How the results depend on the processing

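BC018473 stayed at 823 to 958 CPM in Pon2-/- HSCs and at least 24507-fold to 34661-fold above the WT limit when each sample was left out. The count of neighbours called was 0 in edgeR, 1 with DESeq2 (St6galnac1) and 0 to 1 when each sample was left out, with 1 (St6galnac2) without WT replicate 5. Window genes called gave the same values, 1 with DESeq2 and 0 to 1 when samples were left out, as did sialyltransferases (1 with DESeq2 and 0 to 1), while 0 N-glycan branching and SR protein genes were called under all alternatives run. Over all genes, 24 were called by edgeR, 8 without the filter, 305 with DESeq2, 5 with the replicate block and 20 to 28 when samples were left out. The cause of these differences was not tested. The log2 fold change of Pon2 was -2.13 in DESeq2 (adjusted p = 0.0103) and -2.27 to -1.88 when samples were left out, with an adjusted p of 0.0295 in edgeR without Pon2-/- replicate 5. Genes with the pattern of BC018473 numbered 3 with at least 10 counts and 11 to 15 when samples were left out, and those with the reverse pattern 9 to 14, the latter without WT replicate 5. With the replicate block, no neighbour changed its call, and Pon2 was at -2.32. The labels do not say whether the numbers pair the samples. Deviations of same-numbered samples correlated by 0.000932 to 0.043, and 3 of 12 samples correlated best with their own number. Such low correlations between noisy samples cannot exclude a pairing. The log2 fold change of St6galnac2, 4.55 in edgeR, was 9.30 in limma voom, 10.73 with the replicate block and 4.27 to 13.08 when samples were left out, and 4.57 with both IDs summed, an alternative chosen after seeing the data. No direction was reversed. Genes at a few counts per sample, such as the second St6galnac2 ID, are at the limit of depth.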

Other observations

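Among the family genes, those with the lowest exact p besides St6galnac2 were lower in Pon2-/- HSCs, and they were picked after their values were seen. St3gal6, which adds sialic acid to galactose, averaged 47.3 ± 16.1 CPM in the WT samples against 8.62 ± 14.2 CPM in the Pon2-/- samples (SD, n = 6; exact permutation p = 0.00433, unadjusted), with overlapping groups and an edgeR log2 fold change of -2.45 ± 1.45 (SE, adjusted p = 1.0). Mgat4b, an N-glycan branching enzyme gene, was 33.0 ± 11.7 and 11.1 ± 8.42 CPM (exact permutation p = 0.0152, unadjusted), with overlapping groups and a log2 fold change of -1.58 ± 0.70 (SE, adjusted p = 1.0 in edgeR).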
